A study of Rattus norvegicus with 18 samples.

Results

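A set of 8 genes known to respond to glucocorticoids were followed in cervical dorsal root ganglia (DRG) of rats: *Zbtb16*, *Fkbp5*, *Tsc22d3*, *Sgk1*, *Klf9*, *Pdk4*, *Nr3c1* and *Hif3a*. They were picked by symbol from the RefSeq count table, in which the 8 symbols covered 10 of 15075 identifiers, because *Sgk1* had 3 rows (RefSeq transcripts NM_001193568, NM_001193569 and NM_019232). *Zbtb16* was selected on its lower values in both injured groups against naïve rats, so its values in those comparisons are given below as a description without a test. The other members were added as known targets, or as the receptor itself. Of the 8 genes, 7 had more than 10 reads in at least 6 rats of every comparison and could be tested, and *Sgk1* could not.

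Poly(A) RNA had been sequenced from 18 adult Lister hooded rats, 6 in each of 3 groups. Naïve rats were unoperated. Both other groups had their corticospinal tracts cut on both sides in the pyramids (bilateral pyramidotomy, bPYX) and then received injections into forelimb flexor muscles of a single side with an adeno-associated virus, serotype AAV1, in which the CMV promoter drove either green fluorescent protein (AAV1-CMV-EGFP, group bPYX+GFP) or human neurotrophin-3 (AAV1-CMV-NT3, group bPYX+NT3). The C6-C8 ganglia of the treated side were taken 10 weeks after injury and pooled to make 1 library per rat. The comparisons ask what the injury with a control vector changed and what neurotrophin-3 changed beyond it. No group had the injury without a vector or the vector without the injury, so the effects of injury, surgery and vector cannot be told apart in the comparisons with naïve rats. Groups were taken from the headings of the count table, which give each column a rat number and a sample number that the sample descriptions repeat. The count files deposited rat by rat held the same values as these columns in 18 of 18 rats but were recorded under another group for 17 of 18 rats, and results are also given under that second grouping where it turns a direction.

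Glucocorticoid hormones enter cells and bind the glucocorticoid receptor, the product of *Nr3c1*, which is held ready in the cytoplasm by Hsp90 and its co-chaperones. The bound receptor moves to the nucleus, attaches to palindromic DNA elements and raises or lowers the transcription of nearby genes. Some targets feed back on the pathway: *Fkbp5* encodes a co-chaperone that lowers the affinity of the receptor for hormone, and *Tsc22d3* encodes the glucocorticoid-induced leucine zipper, which restrains inflammatory transcription factors. Among the other members, *Zbtb16* and *Klf9* encode zinc-finger transcription factors, *Sgk1* a kinase that regulates ion channels and transporters, *Pdk4* a kinase that holds back pyruvate oxidation, and *Hif3a* a subunit of the hypoxia-inducible factor family.

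Library totals ranged from 10057787 to 16002410 reads on genes (median 13038873), and the naïve, bPYX+GFP and bPYX+NT3 medians were 13115662.5, 11395576.5 and 13697734. Reads outside annotated exons, the no-feature share, made up 30.8% to 34.6% of each library. Levels are given as CPM, the usual count unit relative to library size, scaled by the trimmed mean of M values (TMM), and each fold change is the ratio of group levels from edgeR's quasi-likelihood test on the counts. Summed levels of 8 neuronal markers were between 10313 and 13475 CPM in all rats, so neuronal RNA was present in every library; markers of satellite glia, Schwann cells, fibroblasts, endothelium and macrophages were detected as well. The ganglia were sequenced whole, so fewer cells of a type and less RNA per cell cannot be told apart.

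Sequences just before transcription starts are shown here for members of the pairs that varied together most closely from rat to rat (values below). These genes share the receptor as a known regulator. *Hif3a*, which also went with *Fkbp5*, is not shown. RefSeq promoter sequences of assembly GRCr8 were matched by symbol for 7 of 8 members (13 starts, *Zbtb16* not among them). Each shown stretch is the 250 bases before the start, on the strand of the gene. Capitals mark 4 common promoter motifs on either strand. The GC box, bound by Sp1-like factors, was searched as GGGCGG. The box known from its letters as the CCAAT box was searched under that spelling, and the core of the cAMP response element as TGACG. Last, the TATA box, which places the start of transcription, was searched as TATAAA. In the *Klf9* and *Tsc22d3* stretches a forward and a reverse CCAAT box overlap.
*Fkbp5*, chr20:6543556-6543805, - strand: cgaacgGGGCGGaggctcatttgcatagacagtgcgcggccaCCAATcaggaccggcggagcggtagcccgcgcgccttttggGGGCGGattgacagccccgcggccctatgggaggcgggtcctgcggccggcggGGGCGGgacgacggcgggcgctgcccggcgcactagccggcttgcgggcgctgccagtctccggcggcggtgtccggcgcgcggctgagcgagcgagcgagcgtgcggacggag
*Klf9*, chr1:230126396-230126645, + strand: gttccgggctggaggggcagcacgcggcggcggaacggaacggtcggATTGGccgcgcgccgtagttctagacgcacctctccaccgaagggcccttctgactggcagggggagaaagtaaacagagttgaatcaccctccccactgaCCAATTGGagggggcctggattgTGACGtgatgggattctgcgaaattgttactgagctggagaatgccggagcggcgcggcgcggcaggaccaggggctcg
*Tsc22d3*, chrX:109010035-109010284, - strand: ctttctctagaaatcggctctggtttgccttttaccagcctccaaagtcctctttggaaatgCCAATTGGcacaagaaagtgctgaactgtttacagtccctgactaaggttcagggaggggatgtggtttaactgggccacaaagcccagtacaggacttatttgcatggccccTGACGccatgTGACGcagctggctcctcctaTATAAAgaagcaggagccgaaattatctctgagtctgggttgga

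For *Tsc22d3*, 3 starts are listed and the stretch shown is the only one of them with the cAMP core, which it holds 75 and 65 bases before the start, next to a TATA box at 44 bases. *Klf9* holds the same core 79 bases before its start. The other *Tsc22d3* starts hold GC boxes and no cAMP core, so the core shared with *Klf9* depends on the start shown. *Fkbp5* lacks it and holds 3 GC boxes and a CCAAT box in a stretch with 76.0% G and C. Over all 33469 promoters of the same length the cAMP core was present in 18.2%, a GC box in 30.5%, a CCAAT box in 34.02% and a TATA box in 12.9%. Of the 13 member starts, 2 held the cAMP core, 8 a GC box, 5 a CCAAT box and 3 a TATA box. The cAMP core was thus about as frequent among member starts as among all promoters. The receptor's palindrome, searched as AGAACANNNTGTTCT, was in 4 of the 33469 promoters and in 0 of the 13 member starts. A lone arm of it, AGAACA or TGTTCT on either strand, was in 17.5% of all promoters and again in 0 of 13, and the circadian E-box CACGTG was in 5.59% and in 0 of 13. These counts describe letters in a short window, and receptor binding sites often lie farther away.

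*Zbtb16* (NM_001013181) was the member with the lowest values in injured rats relative to naïve rats. In naïve rats its level ran from 2.42 to 8.22 CPM (median 4.31, 24 to 114 reads), in bPYX+GFP rats from 1.14 to 3.84 CPM (median 2.23, 11 to 51 reads) and in bPYX+NT3 rats from 1.58 to 2.95 CPM (median 1.95, 17 to 42 reads). All 12 injured rats lay below the naïve median, but the ranges overlapped: 3 of 6 bPYX+GFP rats and 4 of 6 bPYX+NT3 rats were below the lowest naïve rat. The fitted level was 0.52 times the naïve level in bPYX+GFP rats (log2 fold change -0.93, SE 0.34) and 0.47 times in bPYX+NT3 rats (-1.08, SE 0.28). Since these comparisons chose the gene, no p is given. Between the injured groups the ratio of bPYX+NT3 to bPYX+GFP was 0.90 (95% interval 0.59 to 1.38; unadjusted p = 0.61 and adjusted p = 0.87, edgeR; exact permutation p = 0.89, two-sided), so a difference in either direction of the sizes inside that interval was not resolved. The choice required low values in both injured groups, so this comparison is not independent of it.

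The naïve spread of *Zbtb16* was wide, with a coefficient of variation of 47.3% (SD over mean, n = 6) against 12.8% that counting error alone would give at its mean read number. Rat 41 held the highest naïve value and rat 44 the lowest. Without rat 41 the bPYX+GFP log2 fold change was nearest to 0 of all fits that left out 1 rat (range -1.13 to -0.68), and for bPYX+NT3 the range was -1.20 to -0.83. When the groups recorded with the per-rat files were used instead, the sign turned, to 0.84 for bPYX+GFP and 0.60 for bPYX+NT3 against naïve.

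Summed Schwann cell markers (6 of 6 with a row, none at 0) had overlapping ranges in the groups, at 2258 to 3476 CPM in naïve, 1905 to 2905 in bPYX+GFP and 2263 to 2786 in bPYX+NT3 rats, and the medians of both injured groups (2343 and 2473) were below the naïve median (2939), as for *Zbtb16*. Fibroblast markers (4 of 5 with a row, none at 0) had medians of 2044, 1807 and 1589 CPM in the same order, with ranges of 1664 to 2276, 1587 to 2045 and 1227 to 2172. Satellite glial markers (5 of 5, none at 0) summed to 464 to 592, 370 to 627 and 373 to 556 CPM. Within groups, over 18 rats, *Zbtb16* went with the Schwann cell sum at r = -0.19 (rho = -0.20) and with the satellite glial sum at r = -0.61 (rho = -0.67), the latter the closer of the relations, with no p as a description. The part of these cell types in the group difference was not tested.

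**Figure D1:**
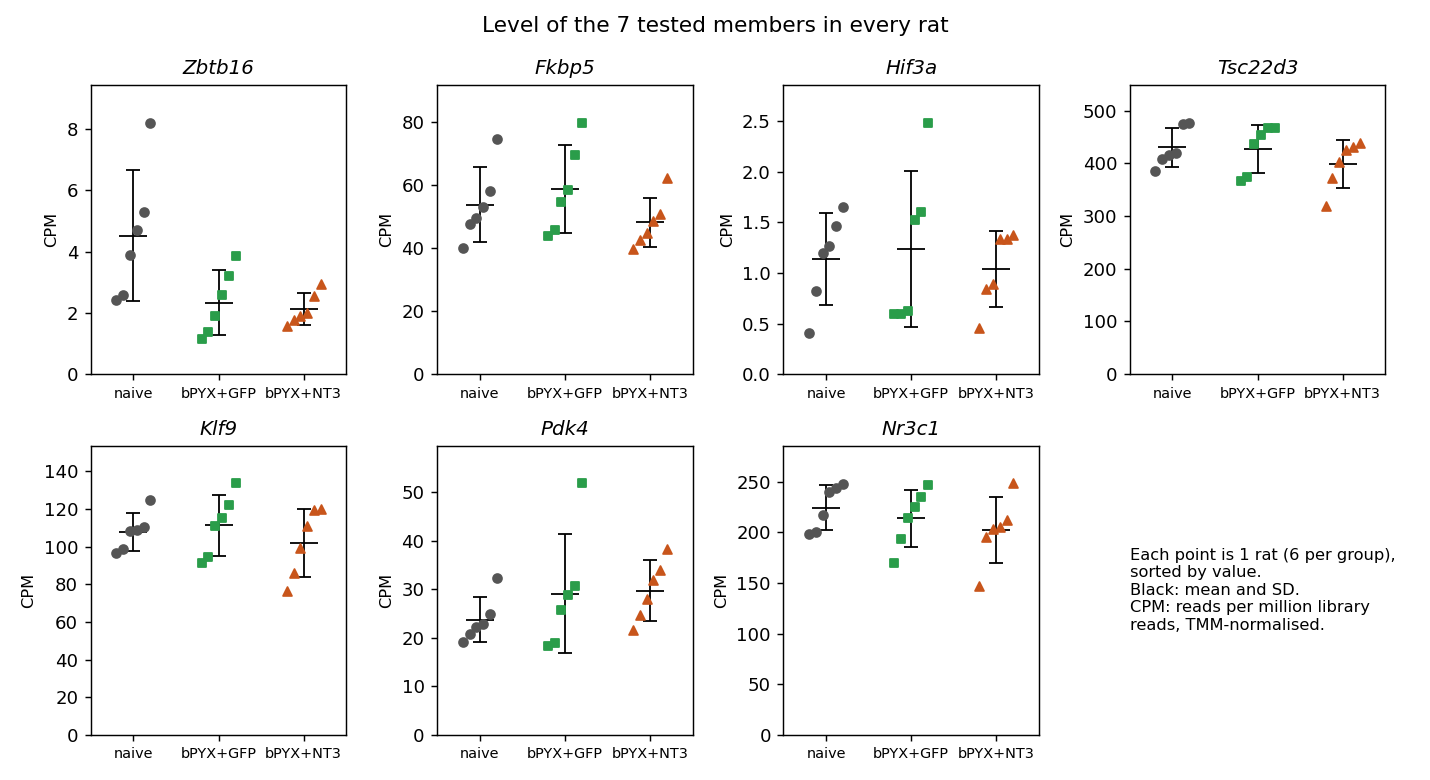
Level of each tested member in CPM (vertical axes, linear from 0) for naïve, bPYX+GFP and bPYX+NT3 rats, with 1 point per rat and the mean and SD in black. *Zbtb16* is lower in the injured groups with overlapping ranges, while the other members overlap throughout.

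No other member was called lower in either injured group, and the feedback regulator *Fkbp5* passed the threshold in no comparison. *Fkbp5* (NM_001012174) ran from 39.9 to 74.6 CPM in naïve rats (median 51.4), from 43.7 to 79.9 in bPYX+GFP rats (median 56.6) and from 39.9 to 62.2 in bPYX+NT3 rats (median 46.7). The 3 ranges overlapped, but 2 of 6 bPYX+NT3 rats were below the lowest bPYX+GFP rat and 5 of 6 below the bPYX+GFP median. Against naïve rats the ratio was 1.09 in bPYX+GFP (95% interval 0.85 to 1.40, p = 0.45) and 0.89 in bPYX+NT3 rats (0.73 to 1.10, p = 0.26), and bPYX+NT3 rats stood at 0.82 times bPYX+GFP rats (0.65 to 1.03, p = 0.079, exact permutation p = 0.14). The bPYX+NT3 against bPYX+GFP difference passed an unadjusted p of 0.05 when rat 18, 52 or 40 was left out (log2 fold change -0.36, -0.35 and -0.37, against -0.29 with all rats) or when the no-feature share entered as a covariate (-0.32).

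*Tsc22d3* (NM_031345) was the steadiest member. Its level was 386 to 477 CPM in naïve rats (median 418), 367 to 467 in bPYX+GFP rats (median 445) and 320 to 439 in bPYX+NT3 rats (median 414). The ratio to naïve rats was 0.99 in bPYX+GFP (95% interval 0.88 to 1.12, p = 0.92, exact permutation p = 0.89) and 0.93 in bPYX+NT3 rats (0.82 to 1.05, p = 0.20, exact permutation p = 0.23). All 6 bPYX+NT3 rats lay below the bPYX+GFP median, with a ratio of 0.93 (0.82 to 1.07, p = 0.28, exact permutation p = 0.32). With at least 3713 reads in every library, its intervals were the narrowest of the members.

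*Klf9* (NM_057211) showed the same picture at 96.4 to 125 CPM in naïve rats (median 109), 91.0 to 134 in bPYX+GFP rats (median 113) and 76.5 to 120 in bPYX+NT3 rats (median 105). Its ratios were 1.03 for bPYX+GFP against naïve (95% interval 0.90 to 1.19, p = 0.64), 0.95 for bPYX+NT3 against naïve (0.80 to 1.11, p = 0.48) and 0.92 for bPYX+NT3 against bPYX+GFP (0.76 to 1.10, p = 0.33; exact permutation p = 0.73, 0.43 and 0.36). The groups overlapped in each case.

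*Pdk4* (NM_053551), which turns fuel use from glucose towards fatty acids, was the member besides *Zbtb16* with a call. Naïve rats had 19.1 to 32.3 CPM (median 22.6), bPYX+GFP rats 18.4 to 51.8 (median 27.3) and bPYX+NT3 rats 21.6 to 38.4 (median 29.9). In bPYX+NT3 rats 5 of 6 values were above the naïve median and 2 above the highest naïve rat. *Pdk4* was 1.25 times the naïve level there (log2 fold change 0.32, SE 0.15, unadjusted p = 0.0496), just past the study's threshold of 0.05, with an adjusted p of 0.61 and a two-sided exact permutation p of 0.087. Leaving out rat 49, 11 or 17 kept the call, and leaving out any other of the 12 rats lost it, with log2 fold changes from 0.24 to 0.43 over the 12 fits; 1 fit over all groups lost it too (0.32). Under the groups recorded with the per-rat files the sign turned (-0.57). In bPYX+GFP rats the ratio to naïve was 1.23 (95% interval 0.88 to 1.71, p = 0.21), with rat 5 the highest, and between the injured groups it was 1.02 (0.73 to 1.44, p = 0.89; exact permutation p = 0.42 and 0.72).

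The receptor gene *Nr3c1* (NM_012576) was at 198 to 247 CPM in naïve rats (median 228), 169 to 247 in bPYX+GFP rats (median 220) and 147 to 248 in bPYX+NT3 rats (median 205). No comparison passed the threshold: the ratios were 0.95 for bPYX+GFP against naïve (95% interval 0.83 to 1.09, p = 0.45), 0.90 for bPYX+NT3 against naïve (0.77 to 1.05, p = 0.17) and 0.94 between the injured groups (0.80 to 1.12, p = 0.47; exact permutation p = 0.48, 0.22 and 0.54). Without rat 23, bPYX+NT3 against naïve passed it (log2 fold change -0.22). Of all members *Nr3c1* followed the no-feature share most closely. Within groups it went with the no-feature share at r = 0.91 (rho = 0.86) and with the satellite glial sum at r = 0.90 (rho = 0.90) over 18 rats. Once the no-feature share entered the fit, the log2 fold change of bPYX+NT3 rats was -0.03 against naïve and 0.02 against bPYX+GFP, compared with -0.15 and -0.08 without it.

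*Hif3a* (NM_022528), at 4 to 33 reads per rat, and *Sgk1* were too thinly covered to resolve moderate changes. *Hif3a* ran from 0.40 to 1.66 CPM in naïve rats (median 1.23), 0.59 to 2.49 in bPYX+GFP rats (median 1.07) and 0.46 to 1.38 in bPYX+NT3 rats (median 1.11), and its 95% intervals spanned ratios from 0.61 to 1.99, from 0.57 to 1.47 and from 0.47 to 1.48 (p = 0.72, 0.69 and 0.50 and exact permutation p = 0.96, 0.81 and 0.78, in the order of comparisons used above). *Sgk1* had at most 8 reads in any rat on any of its 3 rows. RefSeq transcripts of a gene that overlap on the genome can make shared reads ambiguous to the counting program, so these rows say little about the gene's expression. On the row with the most reads in the lowest rat, NM_019232, naïve rats had 2 to 6, bPYX+GFP rats 2 to 6 and bPYX+NT3 rats 3 to 8 reads, and the smallest exact permutation p over its comparisons was 0.074 (bPYX+NT3 against naïve).

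Counted together, 1 of 7 tested members had an unadjusted p under 0.05 in bPYX+GFP against naïve, namely *Zbtb16*, which was lower. Over all genes tested in that comparison 3.25% were called, 0.733% as higher and 2.52% as lower. In bPYX+NT3 against naïve 2 of 7 were called, *Zbtb16* lower and *Pdk4* higher, against 6.01% of all genes (3.09% higher, 2.92% lower). Between the injured groups 0 of 7 were called, against 1.73% of all genes (1.08% higher, 0.654% lower). The *Zbtb16* calls come from the comparisons that chose it, and nothing is read from them. After Benjamini-Hochberg adjustment edgeR's quasi-likelihood test called no gene in any comparison (0% of all genes, from 377, 703 and 201 genes with an unadjusted p under 0.05); DESeq2 adjusted calls were 17, 0 and 0 and those of edgeR's likelihood ratio test 13, 0 and 0, with 0 members among them. With the no-feature share as covariate the quasi-likelihood test called 17, 0 and 0 genes after adjustment, and with the groups recorded with the per-rat files 0, 1 and 0, again with 0 members.

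Without *Zbtb16*, 4 of 6 members had log2 fold changes above 0 in bPYX+GFP against naïve (median 0.09, against 0.01 over all genes). In bPYX+NT3 rats 5 of 6 were below 0 against naïve (median -0.12, all genes 0.00051) and 5 of 6 below 0 against bPYX+GFP (median -0.11, all genes 0.0049). Each of these comparisons shares rats with another, so the values stand side by side and are not separate evidence. The individual intervals, apart from that of *Pdk4* in bPYX+NT3 against naïve, all included 0.

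**Figure D2:**
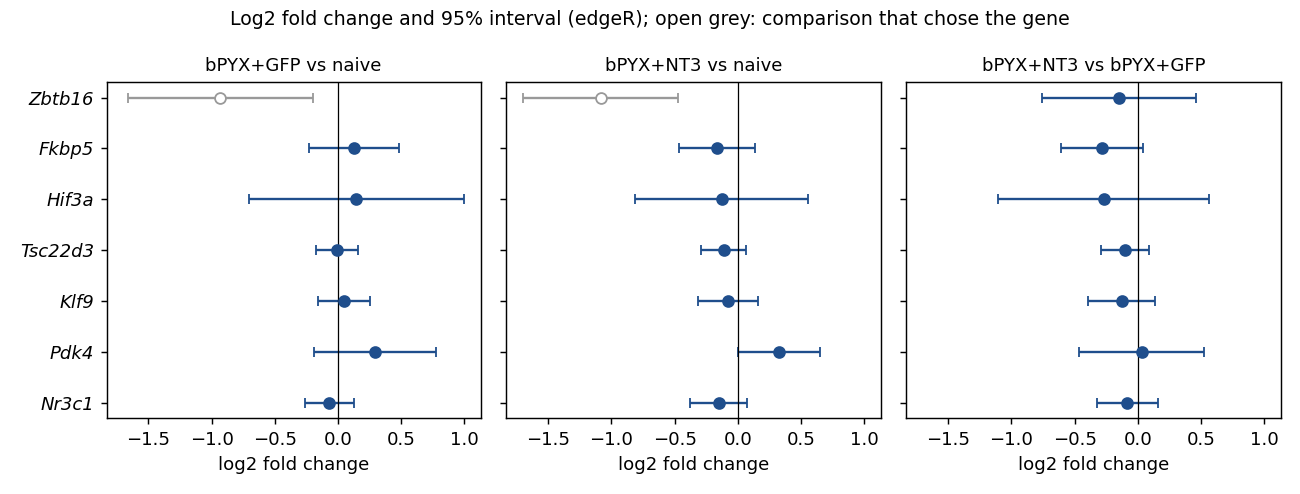
Log2 fold change (horizontal axis) with its 95% interval from edgeR for the 7 tested members in each comparison. Open grey points are *Zbtb16* in the comparisons that chose it, at -0.93 and -1.08; the interval of *Pdk4* in bPYX+NT3 against naïve begins just above 0 and those of the other members include 0.

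The members were then compared from rat to rat inside the groups, which the choice of *Zbtb16* did not use. Each member's log2 CPM (prior count 2) was centred on its group means, and 21 pairs of 7 members were correlated over 18 rats with two-sided permutation of rats within groups (100000 resamples). Positive correlations were found in 17 pairs and negative ones in 4, and 3 pairs had an adjusted p under 0.05 over the 21 pairs by Pearson's r (6 by Spearman's rho). Of all genes, 47.8% to 50.6% were positive with *Zbtb16*, *Fkbp5*, *Tsc22d3* or *Klf9*. Many genes outside the set came closer than some members: *Hif3a* ranked 284 for *Zbtb16* and *Pdk4* 1902 for *Klf9*. How many pairs of other genes would pass was not tested. Without covariates the closest relations lay around *Fkbp5* and around *Tsc22d3*.

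*Zbtb16* and *Fkbp5* rose and fell together most closely (r = 0.85, adjusted permutation p = 0.0021; rho = 0.82, adjusted permutation p = 0.0047). The correlation was 0.71 within naïve, 0.99 within bPYX+GFP and 0.89 within bPYX+NT3 rats, and 0.76 without the 2 rats farthest from the *Zbtb16* median (adjusted permutation p = 0.026). Rat 41 had the highest level of both genes among naïve rats, rat 21 among bPYX+GFP and rat 40 among bPYX+NT3 rats, and rats 44, 18 and 23 the lowest of both. Rats 44, 18 and 23 also had the smallest library totals of their groups (10357766, 10057787 and 10850839 reads). Among 11542 other genes tested in all comparisons, *Fkbp5* was the gene most like *Zbtb16*, and *Zbtb16* the gene most like *Fkbp5*. Both also went with the log2 library total (r = 0.66 and 0.65). After total counts and no-feature share were removed as covariates, r was 0.78 (adjusted permutation p = 0.0087), and after removal of the satellite glial sum it was 0.79 (adjusted permutation p = 0.012). Centring on the groups recorded with the per-rat files gave r = 0.63 and ended the call (adjusted permutation p = 0.061).

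The pair differed in its group means. There were 4.85 to 11.1 *Zbtb16* reads per 100 *Fkbp5* reads in naïve rats (median 8.10), 2.60 to 4.81 in bPYX+GFP rats (median 3.93) and 3.92 to 5.26 in bPYX+NT3 rats (median 4.23). Rat 11 of the bPYX+NT3 group was the injured rat that reached above the lowest naïve rat, rat 49. As *Zbtb16* was chosen on its naïve comparison, the lower ratio is a description. *Hif3a* also went with both across rats: with *Fkbp5* r was 0.68 (adjusted permutation p = 0.049; rho = 0.67, adjusted permutation p = 0.034) and with *Zbtb16* 0.56 (adjusted permutation p = 0.084). The *Fkbp5* relation with *Hif3a* fell to 0.54 without the 2 farthest rats and lost its call (adjusted permutation p = 0.22), with r of 0.81, 0.59 and 0.69 within naïve, bPYX+GFP and bPYX+NT3 rats.

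*Tsc22d3* and *Klf9* formed the other close pair (r = 0.84, adjusted permutation p = 0.0028; rho = 0.85, adjusted permutation p = 0.0017). Within naïve, bPYX+GFP and bPYX+NT3 rats r was 0.81, 0.94 and 0.79, and 0.82 without the 2 rats farthest from the *Tsc22d3* median (adjusted permutation p = 0.0029). Rats 49 and 15 were the highest, and rats 43 and 52 the lowest, for both genes in the naïve and bPYX+GFP groups. Removing total counts and no-feature share left r at 0.85. *Pdk4* leaned towards this pair, with r of 0.59 to *Tsc22d3* and 0.54 to *Klf9* (adjusted permutation p = 0.082 and 0.084; rho to *Tsc22d3* 0.72, adjusted permutation p = 0.017), and without the 2 farthest rats these were 0.51 and 0.41.

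How far these pairs stood from each other changed with the covariates. As measured, *Zbtb16* went with *Tsc22d3* at r = 0.10 and with *Klf9* at r = 0.07 (adjusted permutation p = 0.76 and 0.77), and *Fkbp5* at 0.41 and 0.33 (adjusted permutation p = 0.22 and 0.33). When total counts and no-feature share were removed from each member, a step chosen after the values above were seen, *Fkbp5* went with *Klf9* at 0.78 and with *Tsc22d3* at 0.68 (adjusted permutation p = 0.00021 and 0.015), and *Zbtb16* with *Klf9* at 0.58 (adjusted permutation p = 0.048). Then 6 of 21 pairs passed instead of 3. The pairs are thus not shown to be separate sets of targets.

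The receptor gene ran against some of its targets, at r = -0.51 to *Zbtb16*, -0.56 to *Hif3a* and -0.37 to *Fkbp5*, and with *Klf9* at 0.57. None of these passed adjustment by r (adjusted permutation p = 0.082, 0.082, 0.27 and 0.084), whereas by rho those to *Zbtb16* and *Hif3a* did (-0.63 and -0.67, adjusted permutation p = 0.038 and 0.032). With the same covariates removed they were -0.08, -0.67, -0.11 and -0.0046, so the relation to *Hif3a* stayed (adjusted permutation p = 0.026) and those to *Zbtb16* and *Klf9* went to near 0.

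**Figure D3:**
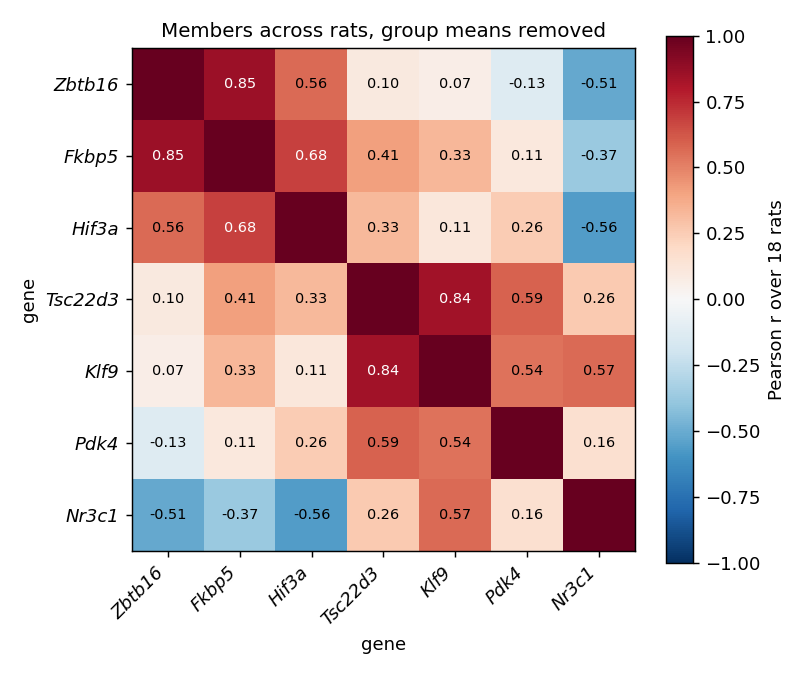
Pearson r between members over 18 rats after removal of group means, from -1 (blue) to 1 (red), with both axes listing the 7 tested members. The highest values are 0.85 for *Zbtb16* with *Fkbp5* and 0.84 for *Tsc22d3* with *Klf9*, and *Nr3c1* is negative with *Zbtb16*, *Fkbp5* and *Hif3a*.

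**Figure D4:**
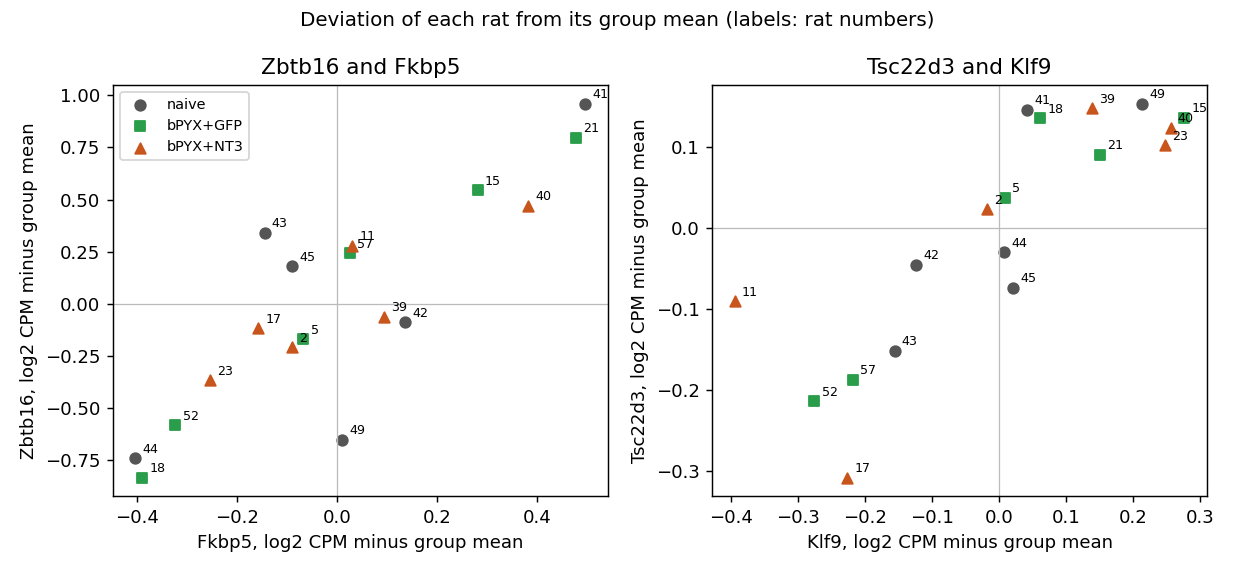
Deviation of each rat from its group mean in log2 CPM for *Zbtb16* (vertical) against *Fkbp5* (horizontal), and for *Tsc22d3* against *Klf9*, with rat numbers beside the points and groups by colour and marker. The points of all groups rise together from lower left to upper right in each panel (r = 0.85 and 0.84).

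Ranked over the genes tested in all comparisons, up to 3 of the genes most like each member are given as a description, without a p. For *Zbtb16* they were *Fkbp5* (r = 0.85), *Mpp3* (0.81) and *Aptx* (0.79), and for *Fkbp5* they were *Zbtb16*, *Cyth1* (0.82) and *Wnt2b* (0.82). For *Tsc22d3* they were *Ip6k2* (0.88), NM_001106396 (0.88) and *Klf9* (0.84), and for *Klf9* they were *Rapgef5* (0.89), *Nr1d2* (0.88), a repressor of the circadian clock, and *Zfp189* (0.86). *Pdk4* was most like *Pxdc1* (0.81), *Stc1* (0.77) and *Dcun1d3* (0.77), and *Hif3a* most like *Mccc2* (0.87) and NM_001106199 (0.82). *Nr3c1* had by far the tightest partners, *Gabpa* (0.98), NM_031098 (0.97) and *Smc6* (0.97). All of these share the libraries and their composition, which were not removed here.

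Other genes of the pathway came from 5 lists with 79 symbols, of which 11 had no row under that symbol and 64 rows were tested in every comparison. In bPYX+GFP against naïve 3 of 64 rows were called, 0 higher and 3 lower (4.69%). In bPYX+NT3 against naïve 6 of 64 were called, 2 higher and 4 lower (9.38%). Between the injured groups 2 of 64 were called, both lower in bPYX+NT3 (3.13%). Set beside the percentages over all genes (3.25, 6.01 and 1.73%), each of these shares rests on few calls. Their median log2 fold changes were 0.04, 0.0035 and -0.0092, and none passed adjustment (smallest adjusted p 0.82, 0.61 and 0.85, edgeR).

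Among genes that handle the receptor or its ligand, *Nr3c2*, the mineralocorticoid receptor that binds the same hormone, ran from 84.1 to 106 CPM in bPYX+GFP rats (median 98.6) and from 71.8 to 94.2 in bPYX+NT3 rats (median 87.7), beside 83.0 to 97.5 in naïve rats (median 90.9). It was lower in bPYX+NT3 than in bPYX+GFP rats with overlapping ranges (log2 fold change -0.19, SE 0.08, p = 0.034; exact permutation p = 0.045). *Srd5a1*, which reduces steroids in the step that begins their clearance, was lower in both injured groups than in naïve rats, at 33.8 to 45.1 CPM in naïve (median 35.8), 28.9 to 37.1 in bPYX+GFP (median 31.3) and 30.5 to 35.5 in bPYX+NT3 rats (median 32.6). Its log2 fold changes were -0.21 (p = 0.026, exact permutation p = 0.026) and -0.19 (p = 0.030, exact permutation p = 0.013), in comparisons that share the naïve rats.

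The 9 chaperone rows tested, from *Hsp90ab1* and *Hspa8* to *Fkbp4*, had no call in any comparison. *Hsp90ab1*, the constitutive Hsp90, stood at medians of 2097, 2108 and 2115 CPM in naïve, bPYX+GFP and bPYX+NT3 rats, and *Hspa8*, the constitutive Hsp70, at 1340, 1406 and 1334 CPM. Of 6 coregulator rows *Smarca4*, the ATPase of a chromatin remodeller, was higher in bPYX+NT3 than in naïve rats (log2 fold change 0.28, SE 0.13, p = 0.044; exact permutation p = 0.076), at 63.4 to 109 against 56.1 to 73.9 CPM. The ranges overlapped.

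Of 28 rows of other textbook targets, *Mertk*, a receptor by which phagocytes take up dying cells, was lower in bPYX+GFP (23.4 to 32.6 CPM, median 30.6) and in bPYX+NT3 rats (22.8 to 38.1, median 30.0) than in naïve rats (31.4 to 42.9, median 39.01). Its log2 fold changes were -0.38 (SE 0.11, p = 0.0031; exact permutation p = 0.0087) and -0.33 (SE 0.11, p = 0.013; exact permutation p = 0.026). *Cdkn1a*, an inhibitor of the cell cycle, was lower in bPYX+GFP than in naïve rats (-0.45, p = 0.023, exact permutation p = 0.063), and *Cavin2*, a coat protein of caveolae, was lower in bPYX+NT3 than in naïve rats (-0.27, p = 0.031, exact permutation p = 0.065). *Angptl4*, an inhibitor of lipoprotein lipase, was higher in bPYX+NT3 than in naïve rats (0.68, SE 0.28, p = 0.027, exact permutation p = 0.097), at 4.00 to 15.4 against 3.93 to 5.81 CPM. By the exact test *Cdkn1a*, *Cavin2* and *Angptl4* did not pass.

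*Pck1*, which makes glucose and glycerol precursors in liver and fat, was lower in bPYX+NT3 than in bPYX+GFP rats (log2 fold change -2.42, SE 0.89, p = 0.017; exact permutation p = 0.12). The bPYX+GFP range of 0.28 to 16.0 CPM (median 1.32) was far wider than that of bPYX+NT3 rats (0.27 to 1.76, median 0.41) or naïve rats (0.29 to 5.34, median 1.53). Adipocyte markers (5 of 6 with a row, none at 0) summed to 6.11 to 32.7 CPM in bPYX+GFP, 7.51 to 12.3 in bPYX+NT3 and 6.95 to 25.3 in naïve rats, and their part in the *Pck1* values was not tested. Among family relatives of the members, 1 of 16 rows was called: *Klf13*, from the family of *Klf9*, was lower in bPYX+NT3 than in naïve rats (-0.41, SE 0.17, p = 0.028; exact permutation p = 0.037), at 3.84 to 6.43 against 5.33 to 8.95 CPM.

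**Figure D5:**
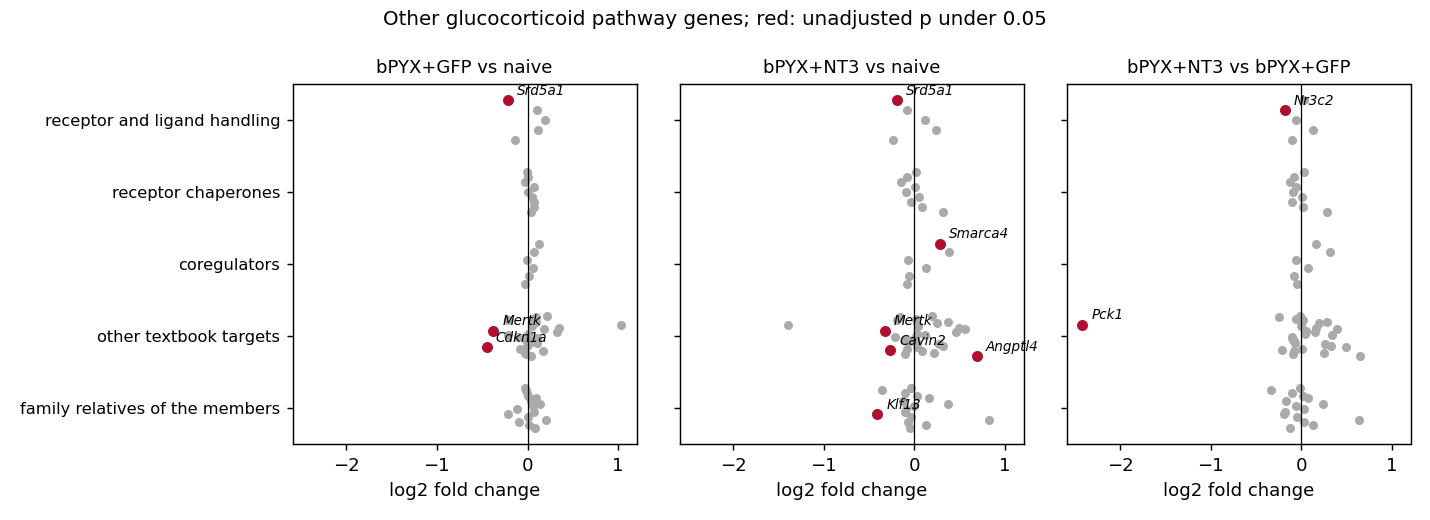
Log2 fold change (horizontal axis) of each tested gene in the 5 pathway lists (rows) for the 3 comparisons, with genes at an unadjusted p under 0.05 in red and named. Most genes lie close to 0, with 3, 6 and 2 called; *Pck1* at -2.42 is the farthest.

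Across rats the listed genes as a body followed the members weakly at most. *Zbtb16* was positively correlated with 34 of 64 rows (median r 0.03, against 0.01 over all genes) and *Fkbp5* with 36 (0.03, against 0.00066). *Tsc22d3* was positively correlated with 38 (median r 0.08, against -0.03 over all genes) and *Klf9* with 34 (0.08, against -0.02). Whether these medians differ from those over all genes was not tested. Single genes stood high, and they are named here after their values were seen. *Mt2A*, a metal-binding metallothionein, was the gene of rank 7 for *Zbtb16* (r = 0.74) and of rank 13 for *Fkbp5* (0.70), and the clock gene *Per1* ranked 14 and 26 (0.70 and 0.65). Neither had such a value with *Tsc22d3* (0.10 and 0.19). *Nr3c2* ranked 22 for *Klf9* (0.79) and 58 for *Tsc22d3* (0.64), with -0.41 to *Zbtb16*. Other listed targets went with both *Fkbp5* and *Tsc22d3*: *Errfi1* (r = 0.60 and 0.63), *Klf15* (0.54 and 0.64) and *Sult1a1* (0.54 and 0.57). The named genes thus do not divide the targets into separate sets.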

How the data were processed

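Poly(A) RNA of 18 rats (6 per group) was analysed. Per the study's methods and the submitters' processing notes, the authors demultiplexed with bcl2fastq 1.8.4, used TopHat2 to align the read pairs to the Rnor_6.0 assembly, discarded duplicates by Picard, and counted reads per RefSeq identifier with HTSeq. Removing duplicates lowers the counts of abundant genes, and reads shared by overlapping transcripts are lost. The deposited values are raw counts. The symbols of 94.1% of 15075 identifiers were found in the RefSeq gene table. The deposited table's heading lines and the sample descriptions gave the groups; no column of another sample was present. The members and gene lists were chosen with earlier results of these data known. Calls used the study's rule, an unadjusted p under 0.05, with Benjamini-Hochberg values over all tested genes beside it. The replicates are separate rats.

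Tests were run in R 4.3.3 with edgeR 4.0.16 (TMM, glmQLFit, glmQLFTest) on 2 groups per fit, over genes that exceeded 10 reads in 6 or more of their 12 rats. Exact permutation tests (two-sided, all regroupings of 6 and 6 rats, smallest possible p 0.0022) and correlations used log2 CPM with a prior count of 2, in Python 3.11.15 with scipy 1.17.1. The fits were tested on simulated data. Genes named from the lists are those called in any comparison, otherwise the 2 highest by mean CPM. Alternatives were the likelihood ratio test, DESeq2 1.42.0, other size factors and filters, 1 fit over the 3 groups, the no-feature share as covariate, the groups recorded with the per-rat files, prior count 0.5, and leaving out each rat. A replicate block and covariates for the correlations were added after the data were seen. One gene among those most like *Hif3a* is not reported here.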

Additional observations from a re-analysis of the deposited data

How the results depend on the processing

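The members called numbered 1, 2 and 0 (bPYX+GFP vs naïve, bPYX+NT3 vs naïve, bPYX+NT3 vs bPYX+GFP). Without *Zbtb16* the counts were 0, 1 and 0. The comparisons with naïve rats chose *Zbtb16*, so nothing is read from whether its calls there were kept or lost. The members called were 0, 1 and 0 with the replicate block, 1 in bPYX+NT3 vs naïve with 1 fit over the 3 groups and with the groups of the per-rat files, and 1 in bPYX+NT3 vs bPYX+GFP with those groups and with the no-feature covariate. Equal counts did not mean equal calls. In bPYX+NT3 vs naïve, 1 fit over the 3 groups called *Zbtb16* lower, whereas the per-rat file groups called another member. With those groups *Zbtb16* was called higher in bPYX+GFP vs naïve (0.84). The calls that ended with the block were *Zbtb16* in bPYX+GFP vs naïve and *Pdk4* in bPYX+NT3 vs naïve (0.31). No label ties same-numbered rats to a shared litter or day. Their correlations ran from -0.43 to 0.55 over 18 pairs and were above 0.1 in 2 of 6 pairs of naïve and bPYX+GFP rats, 5 of 6 of naïve and bPYX+NT3 and 3 of 6 of both injured groups, so the numbers were not taken to pair the rats, and 9 of 36 best matches had their own number. With the block, all genes called in bPYX+NT3 vs naïve were 2962 (703 without), in bPYX+NT3 vs bPYX+GFP 130 (201 without), and listed pathway genes in bPYX+NT3 vs naïve 19 (6 without).

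Listed pathway genes called in bPYX+GFP vs naïve (3) were 5 with library size alone and 8 with the no-feature covariate; in bPYX+NT3 vs naïve (6) they were 2 with that covariate; in bPYX+NT3 vs bPYX+GFP (2) they were 5 by DESeq2, 4 by the likelihood ratio test, 4 with 1 fit over the 3 groups and 4 with the per-rat file groups. All genes called in bPYX+GFP vs naïve were 848 with the covariate and 174 with the per-rat file groups, in bPYX+NT3 vs naïve 330 with those groups, and in bPYX+NT3 vs bPYX+GFP 315 without a filter on low counts. Correlated pairs (3) were 1 when centred on the per-rat file groups and 6 with covariates. The cause of these shifts was not tested.

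Leaving out 1 rat gave 272 to 595, 365 to 1387 and 95 to 2291 genes called in the order above, highest without rat 57, 23 and 57; 2 to 7, 1 to 13 and 0 to 14 listed pathway genes, highest without rat 52 or 57, 41 and 57; 0 to 1, 1 to 2 and 0 to 1 members; and 2 to 5 pairs, 5 without rat 5. Listed genes moved by over 1.5 times also without rat 41 in bPYX+GFP vs naïve (5), without rat 11 (1), 45 or 49 (3 each) or 23 (10) in bPYX+NT3 vs naïve, and without rat 15, 18, 11 or 17 (0 each), 40 (5) or 23 (6) in bPYX+NT3 vs bPYX+GFP. The member call in bPYX+GFP vs naïve, that of *Zbtb16*, was lost without rat 41. As this comparison chose *Zbtb16*, nothing is read from that loss.

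With the per-rat file groups the sign turned for *Zbtb16* (0.84 in bPYX+GFP vs naïve, 0.60 in bPYX+NT3 vs naïve), *Nr3c1* (0.072, 0.13 and, in bPYX+NT3 vs bPYX+GFP, 0.059), *Pdk4* (-0.23, -0.57 and -0.34), *Tsc22d3* in bPYX+GFP vs naïve (0.092), and *Hif3a* (0.16) and *Klf9* (0.0063) in bPYX+NT3 vs naïve. With the no-feature covariate it turned for *Klf9* in bPYX+NT3 vs naïve (0.018) and *Nr3c1* in bPYX+NT3 vs bPYX+GFP (0.023). Leaving out 1 rat turned it for *Hif3a* (-0.18 to 0.29, -0.28 to 0.032 and -0.41 to 0.062), *Tsc22d3* and *Klf9* in bPYX+GFP vs naïve (-0.036 to 0.031 and -0.014 to 0.096), and *Zbtb16* and *Pdk4* in bPYX+NT3 vs bPYX+GFP (-0.28 to 0.054 and -0.069 to 0.28). Exact permutation p values kept their side of 0.05 with a prior count of 0.5. *Sgk1* and *Hif3a*, with few reads, limit what can be said of them.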

Other observations

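The members differed in how much they varied between rats of the same group. The coefficient of variation of *Tsc22d3* was 8.68% among naïve, 10.7% among bPYX+GFP and 11.4% among bPYX+NT3 rats, and that of *Nr3c1* 9.92%, 13.3% and 16.2%, where counting error alone would give 1.33% to 2.02%. *Fkbp5* varied by 21.9%, 23.8% and 16.4% (counting error 3.71% to 3.88%) and *Pdk4* by 19.5%, 42.1% and 20.9% (4.98% to 5.64%). *Zbtb16* varied by 47.3% and 45.4% in naïve and bPYX+GFP rats and by 24.3% in bPYX+NT3 rats, where counting error would give 18.4%. For *Hif3a* the values were 40.1%, 62.6% and 35.8% against about 25.5% to 26.3% from counting. In 21 sets of 6 rats (7 members in 3 groups) Dixon's ratio flagged no highest or lowest rat, but this depends on the scale. In CPM, the unit of the coefficients above, rat 5 did stand apart by that ratio for *Pdk4* among bPYX+GFP rats. It had 51.8 CPM, against 30.7 in the next rat and 18.4 in the lowest. Without rat 5 the *Pdk4* log2 fold change of bPYX+GFP against naïve was 0.049, compared with 0.29 with all rats.

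Markers of macrophages (5 of 5 with a row) summed to 48.9 to 111 CPM (naïve), 40.3 to 86.7 (bPYX+GFP) and 44.8 to 127 (bPYX+NT3). Within groups, over 18 rats, this sum went with *Tsc22d3* at r = -0.41 and with *Zbtb16* at r = 0.36. The fibroblast sum went with *Klf9* at r = 0.51 and with *Nr3c1* at 0.64. The endothelial sum went with *Klf9* at r = -0.44 and with *Tsc22d3* at -0.43. Blood and skeletal muscle markers went with *Nr3c1* at r = -0.61 and -0.73. These are descriptions over libraries that share their composition, and no cause was tested.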
